A study of Rattus norvegicus with 3 samples.

Results

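The 10 genes described here serve the uptake of filtered protein, the hormone receptor Klotho and the metabolism and targets of vitamin D in the kidney: Lrp2, Cubn, Dab2, Kl, Vdr, Cyp27b1, Cyp24a1, Calb1, Trpv5 and Slc8a1. They were listed by name, and a probe was taken as theirs where its RefSeq accession belongs to that gene. All 10 had a probe, 15 probes together, among the 26785 genes and unnamed transcripts on the array. The rats were male Sprague-Dawley, 5 weeks old by the labels. By the methods that was their age on purchase, a week before treatment began. The treated group drank water with GABA at 200 ppm (G200), for 3 weeks by the methods, and the untreated group is the negative control. The labels call the tissue non-tumor kidney. Whether the array RNA came from the cortex or from the whole kidney is not given in the sources used here. Sources differ in the number of rats per group, and 3 arrays were used here.

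Every array held RNA of both groups, Cy3 (green) marking the negative control and Cy5 (red) marking G200. No array had the dyes exchanged, so a dye effect and an effect of GABA cannot be told apart in any ratio. The arrays lay on 1 slide and were read in 1 scan. A log2 ratio above 0 means more signal in G200, after correction of the local background and loess normalization between the dyes. For probes printed in several spots, the mean squared difference between arrays was 1.34 to 2.46 times what the spots of 1 array would give in green, over 1111 probes, and 16.1 to 30.9 times in red, over 1087 probes. With medians in place of means these were 0.529 to 1.10 and 5.56 to 18.0, but the median of a squared difference lies below its mean, so this ratio reads low. By the means the green channels differed somewhat more than replicate spots and, by either, far less than the red ones. Some genes stood apart in green on replicate 1, such as Alb, chosen after its values were seen (13578, 39597.5 and 40913 units). How many control rats the green channels hold cannot be told from them. The negative control was counted as 1 sample and G200 as 3, so the tests may leave out spread between control rats.

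Megalin and cubilin are large receptors on the brush border of the proximal tubule that bind filtered proteins, among them the vitamin D binding protein with its cargo, and carry them into the cell through clathrin-coated pits. The vitamin D precursor taken up this way is activated in the proximal tubule, and the active hormone acts through a nuclear receptor on genes of calcium transport in the distal nephron. Klotho is a membrane protein, mainly of the distal convoluted tubule, that turns a fibroblast growth factor receptor into the receptor for the bone hormone FGF23, which lowers phosphate reabsorption and vitamin D activation.

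Of the 10 genes, 5 had a probe that stood clear of background in 1 colour on every array (Lrp2, Cubn, Dab2, Kl and Vdr), and only these were tested under this filter. The other 5 (Cyp27b1, Cyp24a1, Calb1, Trpv5 and Slc8a1) are given by their values with no test. By limma's test of the mean log2 ratio against 0, with p-values adjusted over all 14183 genes tested and a threshold of 0.05, the endocytic genes Lrp2, Cubn and Dab2 were higher in G200. Thus 3 of the 5 tested passed, against 37.5% of the 14183 genes tested in either direction and 11.5% in the higher direction. Of the 5 tested 0 were lower, against 26.0% of the genes tested. At an unadjusted p under the same threshold the counts in limma's test were 4 higher and 1 lower. Over all 14183 genes tested, 6961 lay under it unadjusted, in either direction. The median log2 ratio of all genes was -0.05. The calls depended on single arrays. Without replicate 1, 2 or 3 the number past the threshold was 1, 2 and 0, and over all genes it was 3540, 4978 and 1580 in place of 5321.

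The scaling of the dyes moves many genes at once, but not by the same amount. From loess to median centring the mean log2 ratio of Lrp2 went from 0.26 to 1.04. That of Vdr went from -0.20 to -0.13. Median centring in place of loess moved the median of all genes by 0.32, and no dye normalization moved it by 0.67. The share of all genes called higher was then 35% and 56.5%, against 11.5% with loess. Counts and calls under these settings hold that shift. Means under them are therefore given also relative to the median of all genes. Subtracting it removes the shift of that median, but not the part of the dye scaling that differs between genes.

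**Figure D1:**
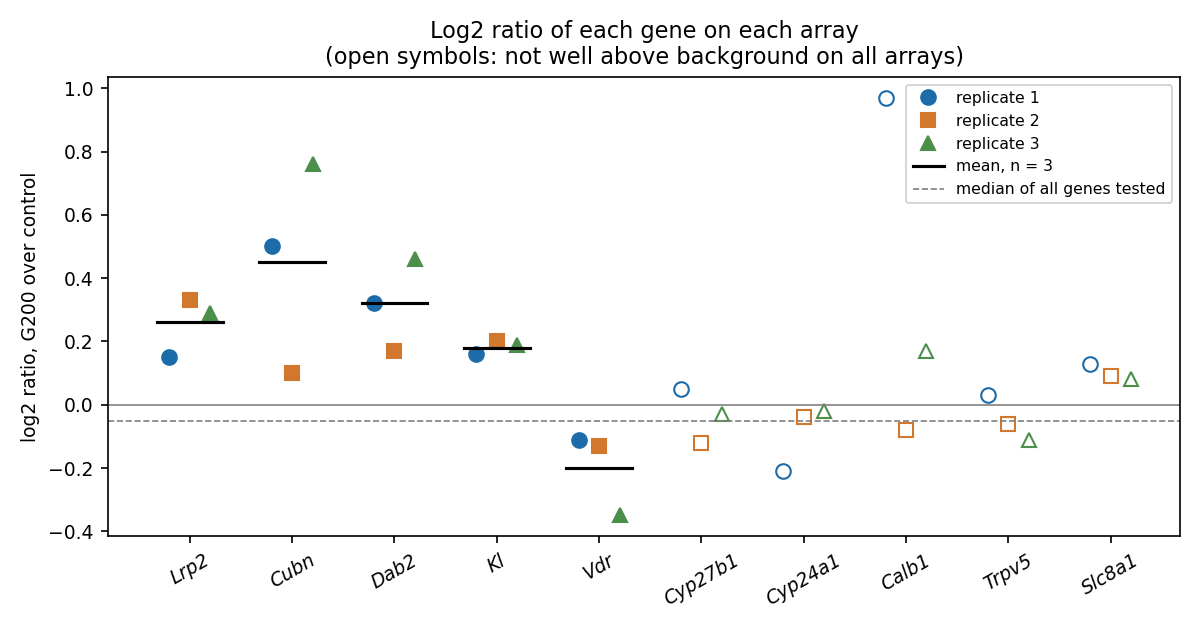
Log2 ratio of G200 over the negative control (y axis) of the 10 genes (x axis) on replicates 1, 2 and 3. Filled symbols mark genes that were tested, with their mean as a bar; open symbols mark genes that were not well above background on every array, and the dashed line is the median of all genes, -0.05. All 3 values lie above 0 for Lrp2, Cubn, Dab2 and Kl and below 0 for Vdr (mean 0.23 without dye normalization), and the first value of Calb1, 0.97, stands apart from its other values.

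Lrp2 encodes megalin. Its log2 ratio was 0.15, 0.33 and 0.29 on replicates 1, 2 and 3, a mean of 0.26 ± 0.10 (SD, n = 3) or 1.2-fold, with an adjusted p of 0.0333. The ratio was above 0 on 3 of 3 arrays. A further probe of Lrp2, also above background in both colours on every array, gave -0.47, 0.05 and 0.02. The probes of Lrp2 thus disagreed on replicate 1, and with the mean of both in place of the brighter one the log2 ratio was 0.06 and the adjusted p 0.614. Without replicate 2 or 3 the adjusted p was 0.0945 and 0.193. It was also over the threshold with a normexp offset of 0 (0.0816), plain subtraction (0.0869), the Feature Extraction log ratio (0.0793) and an intensity trend (0.0586), and Lrp2 passed in 8 of 17 alternatives.

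Cubn encodes cubilin, which has no membrane-spanning part of its own and relies on amnionless and megalin to be taken up. Its log2 ratio was 0.50, 0.10 and 0.76, a mean of 0.45 ± 0.33 (SD, n = 3) or 1.37-fold, with an adjusted p of 0.0353. Replicate 2 lay far below the other arrays, as the net intensities in G200 also show (551, 180 and 559.5 units, against 130.5, 125 and 152 in the negative control before the dyes were normalized). Without replicate 1 or 3 the adjusted p was 0.0637 and 0.192. It was also over the threshold with the Feature Extraction log ratio (0.0666) and with separate channels and no replicate block (0.191). Cubn passed in 11 of 17 alternatives.

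Dab2 encodes an adaptor that links the tails of megalin to clathrin. Its log2 ratio was 0.32, 0.17 and 0.46, a mean of 0.32 ± 0.15 (SD, n = 3) or 1.25-fold, with an adjusted p of 0.0244. Every array lay above 0, with replicate 2 the lowest, as for Cubn and unlike Lrp2. A dimmer probe of Dab2 gave 0.12, 0.20 and -0.01. With the mean of both probes the log2 ratio was 0.21 and the adjusted p 0.0404. Without replicate 1 or 3 the adjusted p was 0.0552 and 0.175. It was also over the threshold with a normexp offset of 0 (0.0631) and plain subtraction (0.0577), and Dab2 passed in 11 of 17 alternatives.

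**Figure D2:**
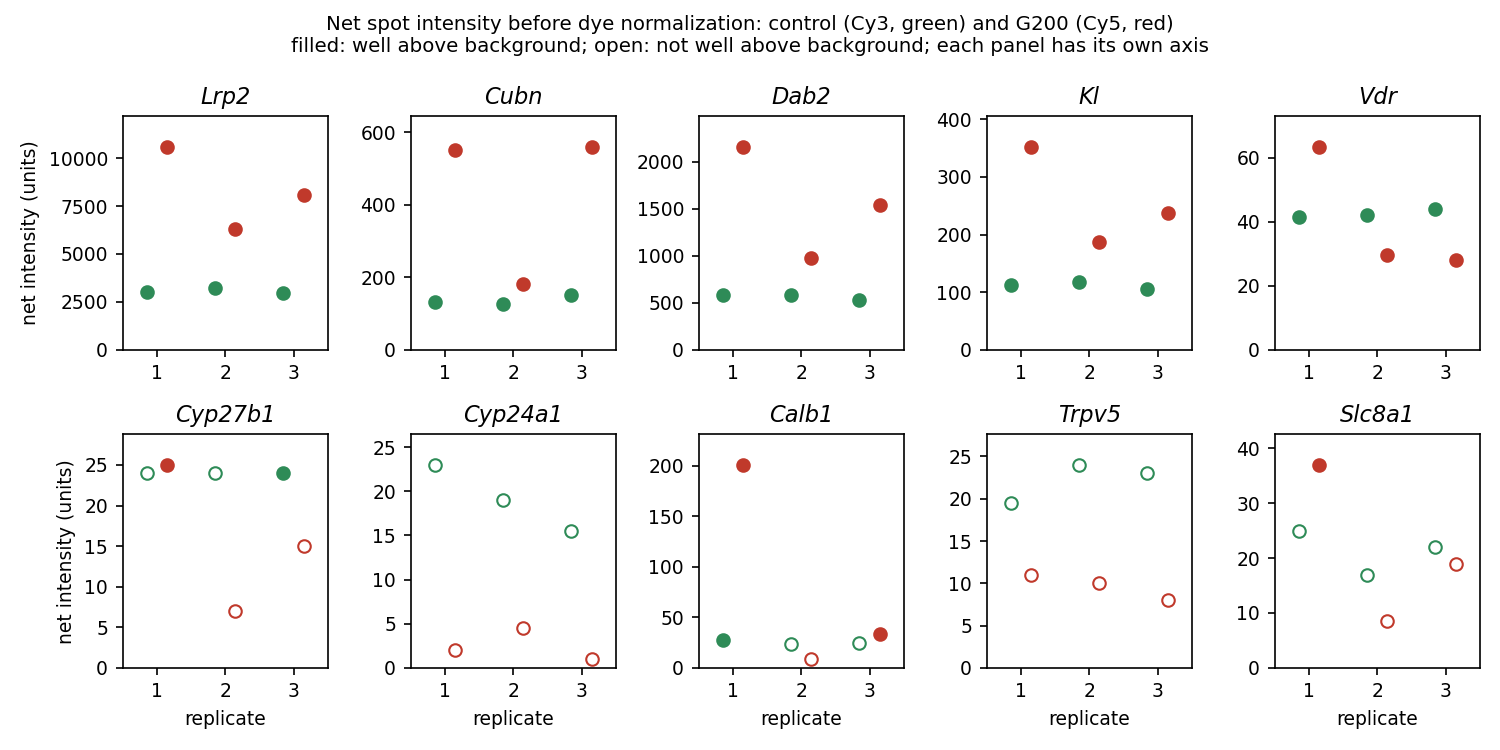
Net spot intensity (spot minus local background, in scanner units, y axis) of the 10 genes on replicates 1, 2 and 3 (x axis) in green (negative control) and red (G200), before the dyes were normalized. Filled points were well above background and open points were not, and each panel has an axis of its own. The green values of Lrp2 span 2967.5 to 3228.5 while the red ones span 6318.5 to 10605, and Trpv5 and Cyp24a1 have no filled point.

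The RefSeq promoter table (rat assembly GRCr8) held 8 of the 10 genes, Cyp24a1 and Calb1 not among them. The 250 bases before each start site were searched on both strands for the vitamin D response element, a repeat of the nuclear receptor site with 3 free bases between the repeats, allowing 2 mismatches in its 12 scored bases. It was found in 0 of the 8 promoters, against 15.4% of all 33469. With 1 mismatch allowed the counts were 0 of 8 and 1.42%. No match says only that these letters are not in this window. The upstream sequences of the 3 genes past the threshold are printed 5′ to 3′ because they moved in the same direction. Capitals mark the stretch closest to the element, with 3 mismatches in Lrp2, 3 in Cubn and 4 in Dab2, all too many to count as a match.
Lrp2, chr3:74754536-74754785, minus strand: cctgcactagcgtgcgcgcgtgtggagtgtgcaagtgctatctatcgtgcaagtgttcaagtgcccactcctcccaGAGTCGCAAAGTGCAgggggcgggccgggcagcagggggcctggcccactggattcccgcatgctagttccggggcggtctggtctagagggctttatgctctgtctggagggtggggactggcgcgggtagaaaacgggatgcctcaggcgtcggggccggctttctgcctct
Cubn, chr17:81501695-81501944, minus strand: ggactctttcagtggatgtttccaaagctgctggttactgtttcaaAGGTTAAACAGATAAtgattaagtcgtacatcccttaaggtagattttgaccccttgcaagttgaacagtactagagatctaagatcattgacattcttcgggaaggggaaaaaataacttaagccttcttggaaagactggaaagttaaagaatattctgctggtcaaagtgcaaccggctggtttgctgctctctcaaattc
Dab2, chr2:57272050-57272299, plus strand: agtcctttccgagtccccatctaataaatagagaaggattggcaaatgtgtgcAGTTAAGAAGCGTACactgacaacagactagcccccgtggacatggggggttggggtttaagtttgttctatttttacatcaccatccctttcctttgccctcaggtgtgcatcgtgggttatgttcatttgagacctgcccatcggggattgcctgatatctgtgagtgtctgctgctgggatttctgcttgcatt
Over the 250 bases the share of G and C was 64.4% in Lrp2, 40% in Cubn and 47.6% in Dab2.

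Among other genes of receptor endocytosis (adaptors, clathrin, endosomal Rab proteins and genes of inherited proximal tubule disease), 28 were listed, 22 had a probe and 20 were tested. Of these 2 were higher and 3 lower, with a median log2 ratio of 0.04 against -0.05 over all genes. Counts were 12 and 0 with median centring (median 0.56) and 18 and 0 without dye normalization (0.92), where the list lay 0.30 above the median of all genes, and 0 and 0 without replicate 3. Amn, the amnionless partner of cubilin, was not past the threshold, with -0.17, -0.07 and -0.05 on the arrays and an adjusted p of 0.279, but passed as higher with median centring (0.59, adjusted p 0.0246) and without dye normalization (0.94, 0.0093), 0.32 relative to all genes under both. Clcn5, the endosomal chloride-proton exchanger whose loss causes Dent disease, was higher on every array, with 0.36, 0.28 and 0.58 and an adjusted p of 0.0123 (0.101 without replicate 3). Its mean of 0.40 was 1.0 with the Feature Extraction log ratio and 0.77 with a normexp offset of 0. Ocrl, the inositol phosphatase lost in Lowe syndrome, was lower, with -0.20, -0.24 and -0.29 and an adjusted p of 0.0311, and lay at -0.35 relative to all genes with median centring and without dye normalization (0.27 before subtracting), where it did not pass (0.595 and 0.268). Its call was lost without any 1 of the arrays (adjusted p 0.0661 to 0.198). The genes of these 2 disorders thus had opposite signs with loess.

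Rab11a, a small GTPase of recycling endosomes, was higher, with a mean of 0.30 ± 0.15 (SD, n = 3) and an adjusted p of 0.0313. Cltb, a clathrin light chain, was lower, with a mean of -0.27 ± 0.13 (SD, n = 3) and an adjusted p of 0.0347, but its mean was 0.41 with median centring (adjusted p 0.0819) and it passed as higher without dye normalization (0.77, 0.0218), 0.15 relative to all genes under both. A further probe of Cltb gave 0.06, -0.15 and -0.26, and with the mean of both the log2 ratio was -0.19 and the adjusted p 0.0908. Both calls were lost without any 1 of the arrays (adjusted p 0.0567 to 0.127 for Rab11a and 0.0538 to 0.23 for Cltb). Lrpap1, the chaperone of megalin, had no probe.

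Receptors related to megalin were listed too. Of 8 listed, 6 had a probe and 4 were tested, with 1 higher, 2 lower and a median of -0.34 (0.29 without dye normalization, -0.33 relative to all genes). Counts were 1 and 0 with median centring and without dye normalization, and 0 and 1 without replicate 3. The median was -0.06 with median centring. With the mean over the tested probes it was -0.19, with 1 higher and 1 lower. Sorl1, a sorting receptor of endosomes, was higher, with 0.65, 0.15 and 0.59 and an adjusted p of 0.0211 (0.0521 and 0.138 without replicates 1 and 3). Its mean of 0.47 was 0.80 with the Feature Extraction log ratio. Lrp5, a coreceptor of Wnt proteins, was lower, with -0.63, -0.62 and -0.55 and an adjusted p of 0.00184, and lay at -0.30 relative to all genes with median centring and without dye normalization (0.32 before subtracting), where it did not pass (0.855 and 0.234). Lrp6, its close relative, was lower, with -1.08, -0.27 and -0.64 and an adjusted p of 0.0173 (0.0941 without replicate 3), and lay at -0.40 relative to all genes under these settings (0.22 before subtracting without dye normalization), where it did not pass (0.375 and 0.328). A dimmer probe of Lrp6 gave 0.07, 0.03 and 0.18, so the probes of Lrp6 disagreed on every array, and with their mean the log2 ratio was -0.29 and the adjusted p 0.0507. Vldlr and Lrp4 were not above background on every array.

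Kl encodes Klotho. Its log2 ratio was 0.16, 0.20 and 0.19, a mean of 0.18 ± 0.02 (SD, n = 3), and the adjusted p was 0.0655. The 3 values lay close together and all above 0, but the mean did not pass the threshold. Under 3 of 17 other settings it did: the log ratio of the Feature Extraction software, median centring and no dye normalization. In signalling by FGF23 and parathyroid hormone, 21 genes were listed, 19 had a probe and 10 were tested. Of these 1 was higher and 5 lower, with a median of -0.24. The median turned to 0.40 with median centring and to 0.75 without dye normalization, and was then 0.13 above the median of all genes. Counts were then 4 higher and 1 lower, and 6 and 0, and without replicate 3 they were 0 and 2.

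Fgfr1, the receptor that Klotho joins, was not above background on every array, with 0.18, 0.12 and 0.03 at its brighter probe and -0.15, -0.09 and -0.04 at its dimmer one. Fgf23 itself, a hormone of bone, was also not above background on every array. Fgfr2 was lower, with -0.96, -0.81 and -0.97 and an adjusted p of 0.000959. Of its other probes 2 were tested and gave means of -0.23 and -0.19, and 1 near background gave 0.14. With the mean over the tested probes Fgfr2 was -0.44, with an adjusted p of 0.00566. Fgf1, a growth factor that binds all of these receptors, was lower, with -1.20, -1.40 and -1.70, a 2.7-fold difference with an adjusted p of 0.000859. Pth1r, the receptor of parathyroid hormone, was higher, with 0.43, 0.29 and 0.41 and an adjusted p of 0.0087 (0.0842 without replicate 3). Its mean of 0.38 was 0.77 with the Feature Extraction log ratio and 0.69 with a normexp offset of 0. The calls of Fgfr2 and Fgf1 held without each array in turn. Relative to all genes they lay at -0.62 and -1.19 with median centring and without dye normalization, against -0.86 and -1.39 with loess. Without dye normalization neither passed (adjusted p 0.988 and 0.0729), nor did Fgfr2 with median centring (0.0681).

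Vdr encodes the vitamin D receptor. Its log2 ratio was -0.11, -0.13 and -0.35, a mean of -0.20 ± 0.13 (SD, n = 3), with an adjusted p of 0.0892, so it was not past the threshold although all 3 values were below 0. The signal was low, with net intensities of 41.5, 42 and 44 units in the negative control and 63.5, 29.5 and 28 in G200. Without dye normalization the mean was 0.23, or -0.39 relative to all genes. With the Feature Extraction log ratio it was -0.54, with an adjusted p of 0.0348. Without replicate 3 it was -0.12, with an adjusted p of 0.441.

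Cyp27b1, the enzyme that activates vitamin D, gave net intensities of 24, 24 and 24 units in the negative control and 25, 7 and 15 in G200. It was well above background in green on replicate 3 and in red on replicate 1, which leaves no comparison between the groups. Cyp24a1, the enzyme that degrades the active hormone and is a direct target of its receptor, gave 23, 19 and 15.5 units in green and 2, 4.5 and 1 in red. None of these was well above background. Neither the activating nor the degrading enzyme could thus be compared between G200 and the negative control on these arrays.

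Of 17 other genes of the vitamin D pathway 14 had a probe and 13 were tested, with 1 higher, 6 lower and a median of -0.20. Among the lower, Rxrg was above background in red on only 1 array (53.5, 11.5 and 17.5 units). With both colours required to be above background the list had 1 higher and 5 lower, with a median of -0.13. With median centring the median turned to 0.01 and without dye normalization to 0.36, both 0.26 below the median of all genes. Counts were then 5 higher and 2 lower, and 6 and 1, and without replicate 3 they were 0 and 1. Pdia3, a protein disulfide isomerase also described as a membrane binding protein of the hormone, was higher, with 0.35, 0.24 and 0.28 and an adjusted p of 0.0182 (0.0709 and 0.122 without replicates 1 and 3). Fdxr, the reductase that feeds electrons to the mitochondrial hydroxylases, was lower, with -0.69, -0.32 and -0.69 and an adjusted p of 0.0072 (0.068 without replicate 3), and lay at -0.26 relative to all genes with median centring and without dye normalization (0.01 and 0.36 before subtracting), where it did not pass (0.967 and 0.145). Rxra, a partner of the vitamin D receptor, gave -0.19, -0.10 and -0.05 and did not pass (adjusted p = 0.22; mean 0.18 without dye normalization, -0.44 relative to all genes). Cyp27a1 gave -0.12, -0.30 and -0.17 and did not pass (adjusted p = 0.0684; mean 0.10 without dye normalization, -0.52 relative to all genes). It passed as lower with a normexp offset of 0 (-0.56, adjusted p 0.0264), plain subtraction (-0.56, 0.0287), the Feature Extraction log ratio (-1.0, 0.00964) and an intensity trend (0.0314). Rxra and Cyp27a1 were above background on 3 arrays in green but on only 2 in red. Cyp27a1 gave net intensities of 29, 15 and 23 units in G200, so its values rest on a weak red signal. Neither gene was tested where both colours had to be above background. Cyp2r1, a 25-hydroxylase, was not above background on every array.

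Gc, the vitamin D binding protein made by the liver and taken up by megalin, was lower by far more than any other gene of the vitamin D list. Its log2 ratio was -1.32, -2.53 and -2.81, a mean of -2.22 ± 0.79 (SD, n = 3) or 4.66-fold lower, with an adjusted p of 0.00273. The call held without each array in turn, with median centring (-1.46) and without dye normalization (-1.11; -1.73 relative to all genes under both). Gc is also 1 of 28 liver markers. Of the 26 liver markers tested, 26 were lower and 0 higher (also 0 at an unadjusted p under the threshold in limma's test), with medians of -1.59, -2.96 and -4.09 on replicates 1, 2 and 3. The number lower was 23 with median centring and without dye normalization, 22 to 26 with 1 array left out and 4 with robust eBayes. It was 0 with the methods' t-test once adjusted over all genes, which only 2 genes passed on ratios and 379 on channels. Ttr, whose probe was the brightest of the list in the negative control on replicate 1, had -1.86, -3.80 and -5.49. Alb, whose probe was the brightest there on replicates 2 and 3, had -2.06, -3.74 and -5.67. Summed over the list, the net intensity was 1.36%, 1.56% and 1.59% of that of all genes tested in the negative control and 0.529%, 0.197% and 0.0805% in G200. Cps1 and Cyp7a1, which also mark liver cells, were not above background in either colour. The part of liver transcripts in the value of Gc was not tested.

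**Figure D3:**
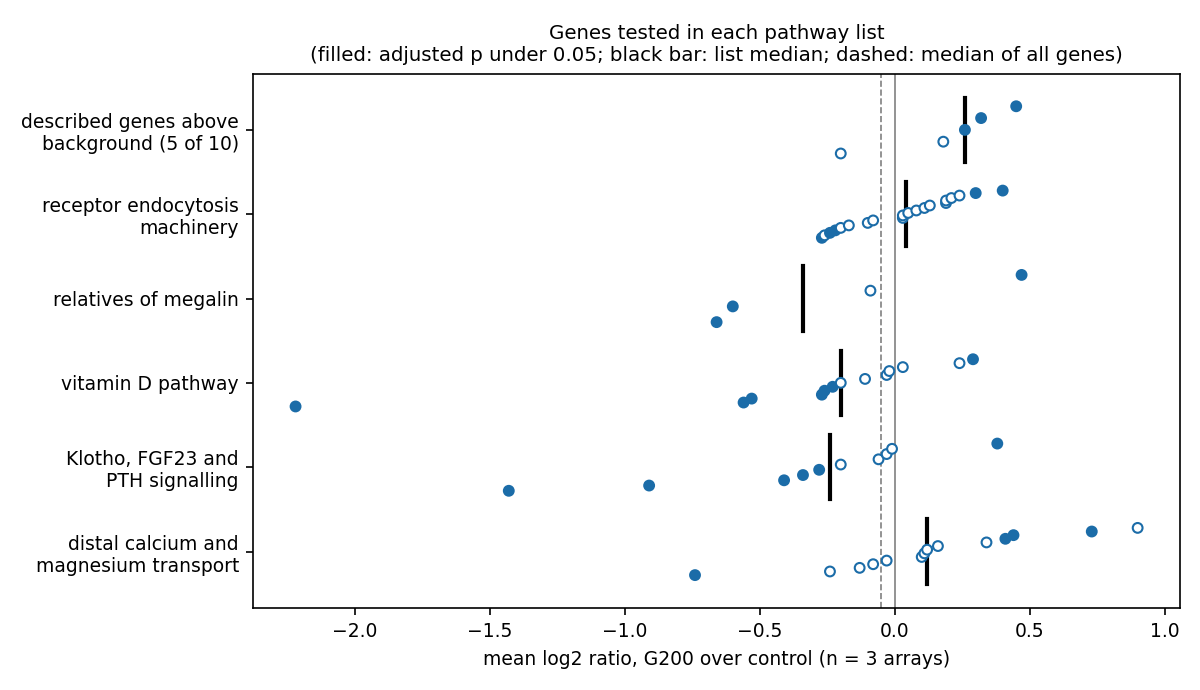
Mean log2 ratio of G200 over the negative control (x axis, n = 3 arrays) of each gene tested in the described genes and the 5 pathway lists (y axis). Filled points passed the adjusted threshold, the black bar is the median of the list and the dashed line the median of all genes. The list medians lie between -0.34 and 0.26, and the point at -2.22 is Gc. Without subtracting the median of all genes, the medians of the vitamin D and Klotho lists turn above 0 with median centring and without dye normalization. That of the relatives of megalin does so without dye normalization.

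Calb1 encodes calbindin-D28k, a calcium buffer of the distal convoluted and connecting tubule and a target of vitamin D. Its net intensity in G200 was 201 units on replicate 1, 9 on replicate 2 and 33.5 on replicate 3. In the negative control it was 28, 24 and 25 units. Replicate 1 of G200 was thus high and the other values lay near background, with log2 ratios of 0.97, -0.08 and 0.17. The gene was above background in red on 2 of 3 arrays and in green on 1, and was not tested.

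Trpv5, the calcium channel of the luminal membrane, was not above background with either of its 2 probes on any array. The brighter one gave 19.5, 24 and 23 units in green and 11, 10 and 8 in red. Slc8a1, the sodium-calcium exchanger that moves calcium out on the blood side, had 3 probes, all not above background in green. The probe of middle brightness was printed in 10 spots. In G200 all 10 of these spots were well above background on replicate 1, 0 of 10 on replicate 2 and 4 of 9 on replicate 3, with mean net intensities of 40.1, 13.2 and 13 units. In red all 3 probes of Slc8a1 were thus above background on replicate 1 and none on replicate 2. Over all spots the median net red intensity was 54.5, 29.5 and 39 units on replicates 1, 2 and 3.

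Of 22 other genes of distal calcium and magnesium transport 21 had a probe and 14 were tested, with 3 higher, 1 lower and a median of 0.12 (0.06 without replicate 1 and without replicate 2). Counts were 10 and 1 with median centring (median 0.72) and 12 and 0 without dye normalization (1.07), where the list lay 0.45 above the median of all genes, and 1 and 1 without replicate 3. Casr, the calcium-sensing receptor, was higher on every array, with 0.33, 0.47 and 0.51, a mean of 0.44 ± 0.09 (SD, n = 3) and an adjusted p of 0.00628 (0.0695 without replicate 3). Cldn14, a tight junction protein that limits calcium reabsorption in the thick ascending limb, was lower, with -0.77, -0.66 and -0.79 and an adjusted p of 0.00122. Egf, whose product stimulates magnesium reabsorption, was higher, with 1.11, 0.52 and 0.56 and an adjusted p of 0.00807, and its dimmer probe gave a mean of 0.16 (0.44 over both, adjusted p 0.0176). The calls of Cldn14 and Egf held without each array in turn, and that of Cldn14 was lost without dye normalization (-0.22, adjusted p 0.345), although relative to all genes it lay at -0.84 there and at -0.69 with loess. With the Feature Extraction log ratio Cldn14 was -1.99 and with a normexp offset of 0 it was -1.43.

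S100g, calbindin-D9k, did not pass (adjusted p = 0.313), with -0.01, 0.51 and -0.02, so that its value rested on replicate 2 (mean -0.01 without it). It passed as higher with median centring (0.74, adjusted p 0.017) and without dye normalization (1.10, 0.00642), 0.48 above the median of all genes. Atp2b1, a calcium pump, gave -0.44, -0.17 and -0.10 and did not pass (adjusted p = 0.0751), but passed as higher with median centring (0.44, 0.0408) and without dye normalization (0.79, 0.014), 0.17 relative to all genes under both. Trpv6 and Atp2b4, a further calcium channel and pump, were not above background in either colour on any array.

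Markers of the nephron segments were read on each array. In bulk tissue, a change in the number of cells of a type and a change of RNA per cell cannot be told apart. Of 12 markers of the distal convoluted and connecting tubule, where Calb1, Trpv5 and much of Klotho are made, 7 were tested and 0 passed (1 was higher and 0 lower at an unadjusted p under the threshold in limma's test), while 2 and 6 were higher with median centring and without dye normalization. On replicate 1 all 7 ratios were above 0, with a median of 0.30, against medians of 0.01 and -0.03 on replicates 2 and 3. The list's summed net intensity was 0.0199%, 0.0175% and 0.0182% of all genes in the negative control and 0.0452%, 0.0185% and 0.0198% in G200. The brightest gene in the negative control was Hsd11b2, with 0.44, -0.13 and -0.03. Klk1, a kallikrein of the connecting tubule that was singled out after its values were seen, had 2.60, -0.11 and 0.21, and Pvalb, a marker of the early distal convoluted tubule, was not above background. Podocyte markers were also high on replicate 1, with medians of 0.88, 0.06 and 0.24 over 7 genes and 1 past the threshold (0 without replicate 3, 3 with median centring, 6 without dye normalization). The part of these segments in the high value of Calb1 on replicate 1 was not tested.

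**Figure D4:**
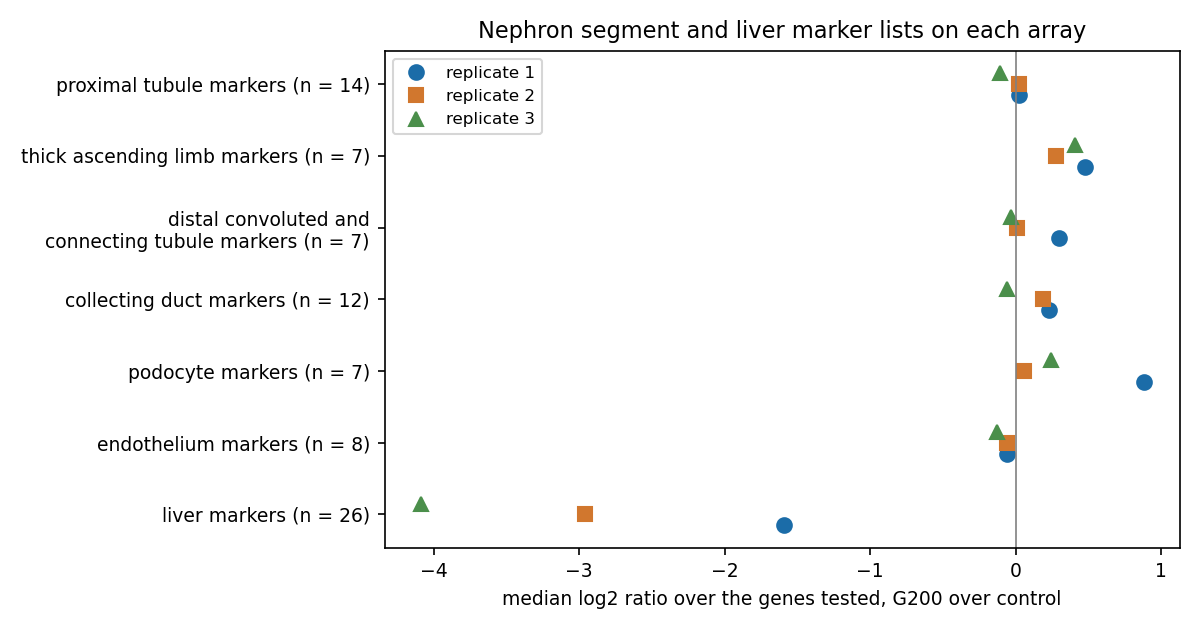
Median log2 ratio of G200 over the negative control (x axis) over the tested genes of 7 marker lists (y axis), on replicates 1, 2 and 3. Medians of distal tubule (0.30), podocyte (0.88), thick ascending limb (0.48) and collecting duct markers (0.23) are all highest on replicate 1, and the liver markers lie at -1.59, -2.96 and -4.09. With median centring the medians of the other lists over all arrays lie above 0, between 0.07 and 0.88.

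Proximal tubule markers are of the cells that make Lrp2, Cubn and Dab2. Of 15 listed 14 were tested, with 2 higher, 4 lower and a median of -0.06, which turned to 0.74 with median centring and 1.10 without dye normalization. Under these 9 and 11 were higher and 0 lower, against 35% and 56.5% of all genes higher, and the list lay 0.48 above the median of all genes, where Lrp2, Cubn and Dab2 lay 0.72 to 0.78 above it. Without replicate 3 the counts were 0 and 0 and the median 0.03. The medians on replicates 1, 2 and 3 were 0.02, 0.02 and -0.11. The summed net intensity was 0.777%, 0.74% and 0.738% of all genes in the negative control and 0.968%, 1.06% and 0.969% in G200. Miox was the brightest in the negative control and Slc7a13 in G200. Slc5a12 was not above background on every array. Of the 4 lower, Cyp2e1, Hnf4a and Slc27a2 (chosen after their values were seen) are made in liver too. On replicates 1, 2 and 3 Cyp2e1 had -0.41, -1.63 and -1.72, beside medians of -1.59, -2.96 and -4.09 for the liver markers. Hnf4a had -0.33, -0.27 and -0.35, and Slc27a2 had -0.59, -0.18 and -0.85. The remaining gene, Miox, had -0.34, -0.25 and -0.15. The part of liver transcripts in these values was not tested. Thick ascending limb markers were higher in 4 of 7 tested and lower in 0 (1 lower at an unadjusted p under the threshold in limma's test), with a median of 0.41 and summed intensities of 0.201%, 0.236% and 0.22% in the negative control and 0.454%, 0.447% and 0.447% in G200. The brightest in the negative control was Umod, with 0.98, 0.81 and 0.82. Some genes belong to more than 1 list: Egf and Cldn16 also to calcium and magnesium transport, as do Klk1, Slc12a3 and Pvalb of the distal tubule, while the distal tubule and collecting duct lists share Scnn1b and Scnn1g, and the Klotho and proximal tubule lists share Slc34a1. Collecting duct markers were higher in 2 of 12 tested and lower in 1, with a median of 0.16 (0.07 with 1 higher and 1 lower without replicate 1, and 1 higher and 3 lower without replicate 2), and endothelium markers higher in 0 of 8 (0 at an unadjusted p in limma's test) and lower in 1, with a median of -0.06 (0.07 with median centring). Higher with median centring were 6 of the thick ascending limb, 9 of the collecting duct and 2 of the endothelium, and without replicate 3 the thick ascending limb had 2. The part of these segments in the values of the 10 genes was not tested, and sums in red and green also hold the difference between the dyes.

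The size of the differences depended on how the dyes were scaled. Relative to the median of all genes with median centring and without dye normalization, Lrp2 lay 0.78 above it under both, Cubn 0.72, Dab2 0.73 and Kl 0.39, and Vdr lay 0.39 below it under both. With loess the same differences were 0.31 for Lrp2, 0.50 for Cubn, 0.37 for Dab2, 0.23 for Kl and -0.15 for Vdr. Of all calls, 79.6% were higher with median centring and 96.3% without dye normalization, against 30.6% with loess. At their brightest probes, Lrp2, Cubn, Dab2 and Kl stayed above the median and Vdr below it. This held under the other background corrections and dye scalings and with 1 array left out. The alternatives that change only the test leave these means as they are. The further probe of Lrp2 had a mean of -0.13 with loess, or -0.08 relative to the median. With the mean of both probes Lrp2 lay 0.11 above it.

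**Figure D5:**
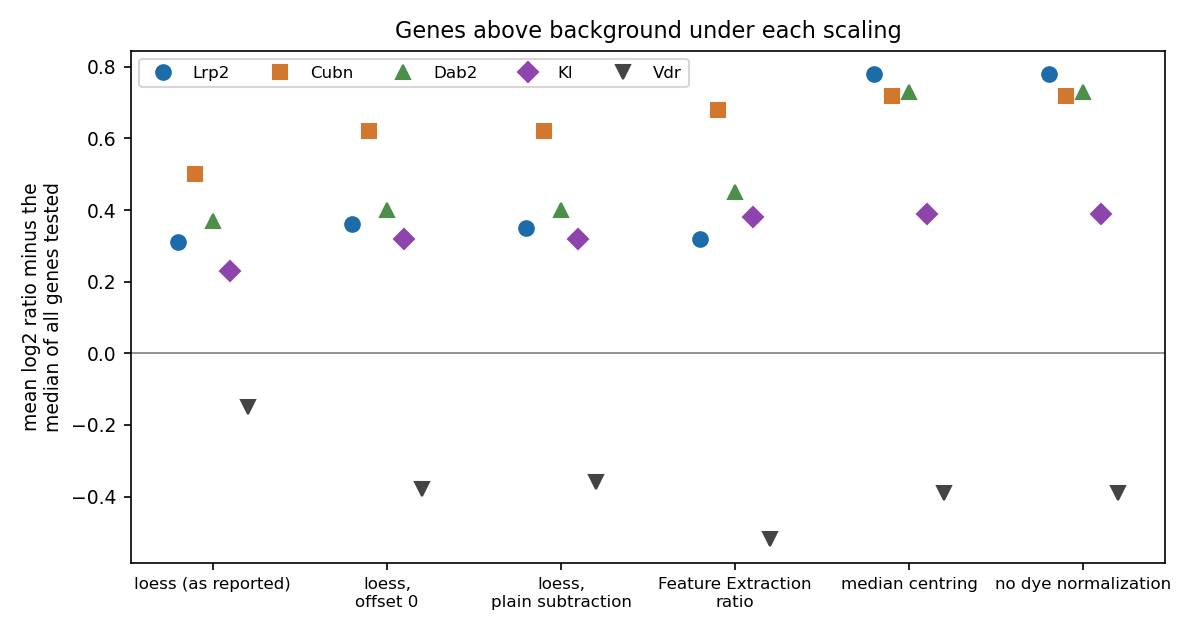
Mean log2 ratio minus the median of all genes (y axis, n = 3 arrays) of the 5 genes above background under 6 ways of background correction and dye normalization (x axis). Lrp2 ranges from 0.31 to 0.78 and Vdr from -0.52 to -0.15. The sizes thus move while each gene, read at its brightest probe, stays on its side of 0. Without subtracting the median, Vdr turns to 0.23 without dye normalization.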

How the data were processed

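The authors scanned 3 arrays with 2 colours and deposited Agilent Feature Extraction tables holding uncorrected median intensity for spots and local background, and a log10 ratio, red to green, which the authors' software formed after background subtraction and dye normalization. The labels name Feature Extraction version 9.3.2.1, which differs from the methods and the file headers. Here the intensities were corrected with limma 3.58.1 in R 4.3.3 (normexp, offset 50) and normalized by loess within each array, without control spots (weight 0) and outlier spots (635, 736 and 945 on replicates 1, 2 and 3). Replicate spots were averaged per probe. RefSeq symbols were found for 18355 of 30367 probes, matched by accession in the table of GRCr8. Each array had 42877 spots other than controls, of which 24260 to 27008 were well above background in a colour, and none was saturated. A probe was kept where over 0.5 of its spots were well above background in the same colour on every array, and the brightest stood for its gene. Mean log2 ratios were tested against 0 with lmFit and eBayes, adjusted by Benjamini-Hochberg over all 14183 genes. The array pairs G200 with the negative control, and separate channels without this block were an alternative. That fit and the methods' t-test on channels took the green channels of the 3 arrays as separate samples, although the negative control was counted as 1. Steps were tested on simulated data. The 10 genes and all lists were chosen with earlier results of these data known. Named from the lists are 15 direct partners whatever their values and, per pathway list, up to 2 rises and 2 falls, the largest past the threshold with 1 sign on all arrays. NPXY motifs in receptor tails, named in the plan, were not analysed here.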

Additional observations from a re-analysis of the deposited data

How the results depend on the processing

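Of the 10 genes, 3 passed the adjusted threshold as reported. Their number was 1 with a normexp offset of 0 and with plain subtraction (only Cubn), 2 with the mean over the tested probes and with an intensity trend (Lrp2 lost), 2 with separate channels and no replicate block (Cubn lost), 4 with median centring and without dye normalization, and 3 (Dab2, Kl and Vdr) with the Feature Extraction log ratio. Using the methods' t-test it was 0 on log ratios and on channels, where 3 of the 10 passed unadjusted on channels and 2 on log ratios. Over all genes 5321 passed, 8314 without dye normalization, 2 and 379 with the methods' t-test on ratios and channels (4472 and 4209 unadjusted), and 1580 to 4978 with 1 array left out (3540 without replicate 1). For the 10 genes that range was 0 to 2. The promoter count was 0 with 2 or 1 mismatches allowed. Of 440 values of 26 named genes, 331 stayed the same, 84 were weaker, 10 stronger and 15 reversed. Here the same means an unchanged sign and call, whatever the size of the value. Weaker means a lost call, stronger a gained call and reversed a changed sign. Of the reversed values 4 came with median centring and 10 without dye normalization, which move the median of all genes by 0.32 and 0.67. The sign turned with median centring in Amn (0.59), Atp2b1 (0.44), Cltb (0.41) and Fdxr (0.01), and without dye normalization in Amn (0.94), Atp2b1 (0.79), Cltb (0.77), Cyp27a1 (0.10), Fdxr (0.36), Lrp5 (0.32), Lrp6 (0.22), Ocrl (0.27), Rxra (0.18) and Vdr (0.23). Relative to that median only Amn (0.32), Atp2b1 (0.17) and Cltb (0.15) turned. S100g was -0.01 without replicate 2 and 0.25 without replicate 1. The cause was not tested. Slide as a block was not run, as there was 1 slide. The filter on signal over background left 5 of the 10 genes without a test. With no filter all 10 were tested and 3 passed (Lrp2, Cubn and Dab2). Exchanged dyes and further control rats would be needed to separate dye, rat and GABA.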
